A study of Canis lupus familiaris with 6 samples.

Results

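The genes described here are the leukocyte integrins and adhesion molecules of dog blood: the alpha chains ITGAL, ITGAM, ITGAX and ITGA4, the beta chains ITGB2, ITGB1 and ITGB7, the selectin ligand SELPLG and the integrin activator FERMT3. They were chosen by symbol, and 8 of the 9 had a row among the 31512 genes of the deposited table, as no row carried the symbol ITGAX. Whole blood of adult, healthy Beagle dogs was drawn on day 30 from 6 animals, 3 fed the control snack and 3 fed CPP-Se, and gave 1 library per dog. CPP-Se is a chelate of selenium with phosphopeptides cleaved from milk casein. All dogs ate the same maintenance food followed by a snack, which held CPP-Se in the CPP-Se group and none in the control group, so the comparison asks how blood gene expression differed with the supplement. Which dogs of the larger feeding groups were sequenced, and why, is not given in the sources used here.

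Integrins are pairs of 1 alpha and 1 beta chain that span the cell membrane and hold leukocytes to vessel walls, to other cells and to matrix. ITGB2 pairs with ITGAL to form LFA-1, which all leukocytes carry, and with ITGAM (Mac-1) or ITGAX, which are known mainly from neutrophils, monocytes and dendritic cells. ITGA4 pairs with ITGB1 to form VLA-4, or with ITGB7 to form the receptor that guides lymphocytes to the gut. SELPLG (PSGL-1) lets leukocytes roll on selectins before integrins arrest them, and FERMT3 (kindlin-3) binds the tails of beta chains and is needed to switch integrins on in blood cells.

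Each library had 6598173 to 8067034 reads on genes, and 8 hemoglobin genes held 48.7% to 55.9% of them in 5 dogs but 36.6% in CPP-Se replicate 2. The library size implied by the FPKM (fragments on a gene divided by its length and by the library size) of that dog was 1.65 times its reads on genes, against 0.882 to 1.05 times in the other dogs. The deposited values therefore already carry a scaling between libraries. Reads on the 8 genes ranged from 244 (ITGA4 in CPP-Se replicate 1) to 9969 (ITGB2 in CPP-Se replicate 2), so none was near the floor of 3 reads. As the samples were whole blood, fewer cells of a type and less RNA per cell cannot be told apart in any value given here.

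The row named ITGAM may not measure a single alpha chain. It carried the symbol ITGAM but was described in the table as integrin alpha-X, the product of ITGAX. It spanned 187316 bases of chromosome 6 (16808971 to 16996286, reverse strand, in the dog genome of Ensembl release 100), and its gene length was 11495 bases, against 3553 bases for ITGAL. A row without a symbol, described as integrin alpha-D (ENSCAFG00000014312, 16860163 to 16879490), lay inside it on the same strand. In the RefSeq annotation of another dog assembly (UU_Cfam_GSD_1.0), ITGAX and ITGAM are direct neighbours and ITGAD lies 2 protein-coding genes before ITGAX. The values named ITGAM below may thus hold reads of ITGAX, and the share of each gene was not tested. The integrin alpha-D row, chosen after its values were seen, had 6, 41 and 12 reads in control replicates 1, 2 and 3 and 48, 41 and 45 reads in the CPP-Se dogs. Its reads amounted to 0.912% of those on ITGAM, and its log2 fold change was 0.61 (standard error 0.39, Benjamini-Hochberg adjusted p = 0.491 in limma).

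All 8 genes were well expressed, and the mean levels of the 3 beta chains stood above those of the 3 alpha chains. FPKM are scaled by gene length, so levels may be set side by side, except that the length of the ITGAM row may not be that of 1 chain, which limits its place in the order. Mean FPKM over the 6 dogs were 248 for ITGB2, 232 for ITGB7, 189 for SELPLG, 103 for FERMT3, 66.4 for ITGB1, 37.8 for ITGAM, 17.97 for ITGAL and 14.4 for ITGA4. By this mean ITGB2 ranked 199 and ITGA4 ranked 2449 among the 9847 genes averaging 1 FPKM or more. The order was firm in some places only. SELPLG stood above FERMT3, FERMT3 above ITGB1, and ITGAM above ITGAL in 6 of 6 dogs, whereas ITGB2 stood above ITGB7 in 3 of 6 dogs and ITGAL above ITGA4 in 4 of 6. ITGB1 stood above ITGAM in 5 of 6 dogs, the exception being CPP-Se replicate 2 with 35.4 FPKM of ITGB1 and 41.3 FPKM of ITGAM. For every pair of neighbours in this order the ranges over the 6 dogs overlapped.

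**Figure D1:**
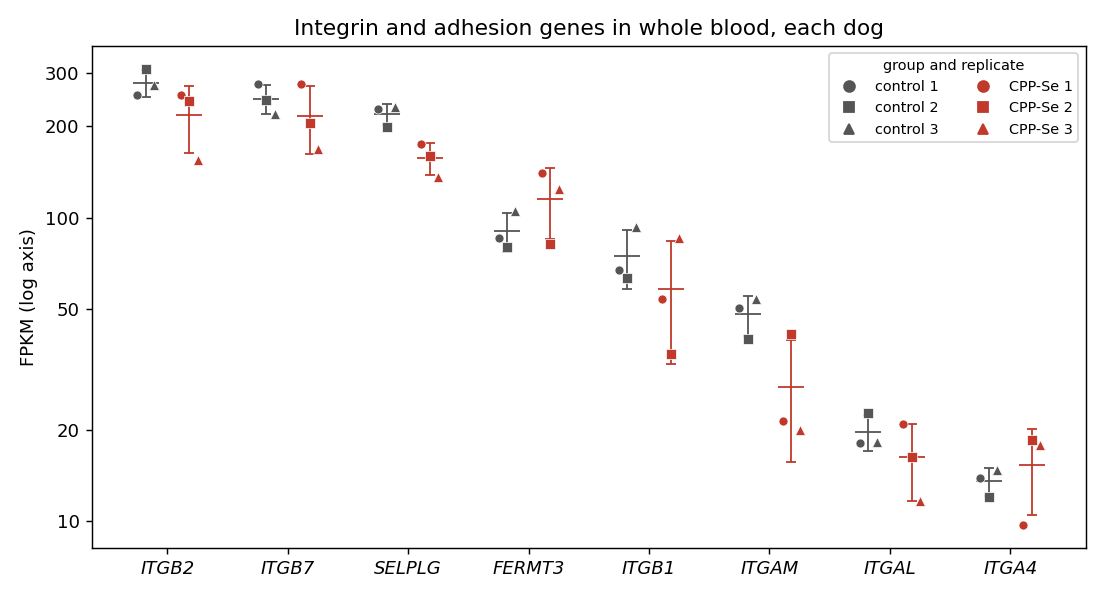
FPKM (log axis) of the 8 genes, ordered by their mean over the 6 dogs, with control dogs in grey and CPP-Se dogs in red, marker shapes for replicates 1, 2 and 3, and horizontal and vertical bars for the mean and SD of 3 dogs. The dogs of the groups are separated for SELPLG, where the CPP-Se dogs lie between 137 and 175 FPKM and the control dogs between 199 and 232 FPKM, and they overlap for the other 7 genes.

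None of the 8 genes was a DEG between the CPP-Se and control groups. SELPLG and ITGAM showed the lowest p-values, with lower levels in the CPP-Se group at 71.6% and 57.4% of the control mean. ITGB2, ITGAL, ITGB1 and ITGB7 had lower means and FERMT3 and ITGA4 higher means in the CPP-Se group, all within the spread between dogs. Changes were tested on log2(FPKM + 1) over 9847 genes (limma with an intensity trend, two-sided, Benjamini-Hochberg adjustment), and genes past 0.05 after adjustment that also differed at least 1.5-fold were taken as DEGs. Called were 0 of the 8 genes, against 3 of all genes tested (0.0305%), and 2 of the 8 had an unadjusted p under 0.05, against 16% of all genes tested. Both were lower in the CPP-Se group, as were 9.1% of all genes at that p, and 0 were higher, against 6.87%. The CPP-Se mean on the log2 scale was lower for 6 of the 8 genes, against 50.4% of all genes. Limma-voom on the recovered reads and limma-voom with sample quality weights also called 0 of the 8, while calling 0.0102% and 1.58% of all genes. In both of these fits ITGAM and SELPLG were again the 2 genes with an unadjusted p under 0.05, a level reached by 16.1% and 20.5% of all genes. Both kept it with another pseudocount, other filters, variance models, array weights or median-of-ratios scaling. Neither reached it with FPKM at a common sum per dog, with or without hemoglobin genes. SELPLG missed it under upper-quartile scaling and with replicate number as a block. With 1 dog left out, ITGAM reached it only without control or CPP-Se replicate 2 and SELPLG only without CPP-Se replicate 1. FERMT3 reached it without CPP-Se replicate 2 and ITGB1 without CPP-Se replicate 3. The median log2 fold change of the 8 genes was -0.34, and that of all genes tested was -0.0043. Without CPP-Se replicate 3, which held the lowest value of 5 of the 8 genes, the median of the 8 was -0.12.

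ITGB2 (ENSCAFG00000011039, chromosome 31, 38521103 to 38547018), the beta chain that LFA-1 and Mac-1 share, had 254, 309.9 and 273 FPKM in control replicates 1, 2 and 3 and 254, 243 and 155 FPKM in CPP-Se replicates 1, 2 and 3. CPP-Se replicate 3 stood far below the rest, and the groups overlapped through CPP-Se replicate 1. The group means were 279 ± 28.6 and 217 ± 54.4 FPKM (SD, n = 3 dogs per group here and below), with a log2 fold change of -0.39 (95% interval -0.97 to 0.19, adjusted p = 0.499 from limma). The estimate ranged from -0.52 without CPP-Se replicate 1 to -0.16 without CPP-Se replicate 3.

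ITGAL (ENSCAFG00000016603, chromosome 6, 17605760 to 17644986), the alpha chain of LFA-1, had its highest and lowest values in the same dogs as ITGB2. Its FPKM were 18.1, 22.7 and 18.2 with the control snack, and CPP-Se replicates 1, 2 and 3 had 20.9, 16.3 and 11.6 FPKM. Control replicate 2 was the highest and CPP-Se replicate 3 the lowest dog, and CPP-Se replicate 1 lay within the control range. The log2 fold change of ITGAL was -0.29 (95% interval -0.84 to 0.26, adjusted p = 0.597 from limma), and it was -0.48 without CPP-Se replicate 1 and -0.0808 without CPP-Se replicate 3.

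ITGAM (ENSCAFG00000016881), the alpha chain of Mac-1, showed the largest difference of the 8 genes. Control replicates 1, 2 and 3 had 50.5, 39.8 and 53.7 FPKM, against 21.4, 41.3 and 19.97 FPKM in CPP-Se replicates 1, 2 and 3. CPP-Se replicates 1 and 3 were near 20 FPKM, whereas CPP-Se replicate 2, the dog with fewer hemoglobin reads, lay within the control range. The means were 48.0 ± 7.30 and 27.5 ± 11.9 FPKM, and the log2 fold change was -0.84 (standard error 0.29, 95% interval -1.53 to -0.16, unadjusted p = 0.0216, adjusted p = 0.247 from limma). Over the 19 other settings tried, its log2 fold change lay between -1.17 (without CPP-Se replicate 2) and -0.66 (without CPP-Se replicate 3). The adjusted p over these settings was 0.0647 to 0.681 (limma), so ITGAM was called in 0 of them.

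ITGA4 (ENSCAFG00000014175, chromosome 36, 24653408 to 24729057), the alpha chain of VLA-4 and of the gut-homing receptor, had 13.9, 11.97 and 14.8 FPKM in the control dogs and 9.70, 18.4 and 17.8 FPKM in the CPP-Se dogs. The CPP-Se dogs lay on both sides of the control range, with replicates 2 and 3 above it and replicate 1 below it. The log2 fold change was 0.12 (95% interval -0.48 to 0.72, adjusted p = 0.863 from limma), and its sign turned in 3 of the 19 other settings. The 3' part of ITGA4 overlaps CERKL on the other strand, which held reads equal to 42.9% of those on ITGA4. The counting is not stated to use strand, so reads where these genes overlap cannot be told apart.

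ITGB1 (ENSCAFG00000003821, chromosome 2, 3670596 to 3756961), which pairs with ITGA4 and with several other alpha chains, had 67.2, 63.0 and 93.5 FPKM in the control dogs and 54.0, 35.4 and 85.5 FPKM in the CPP-Se dogs. Replicate 3 was the highest dog in each group, although the replicate numbers do not tie control dogs to CPP-Se dogs. The highest CPP-Se dog had 2.41 times the level of the lowest, the widest spread within a group among the 8 genes. ITGB1 had a log2 fold change of -0.42 (95% interval -1.18 to 0.35, adjusted p = 0.580 from limma). Leaving out CPP-Se replicate 2 gave -0.11 and leaving out CPP-Se replicate 3 gave -0.73.

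ITGB7 (ENSCAFG00000007065, chromosome 27, 1985782 to 1994651) had 275, 244 and 221 FPKM in the control dogs and 277, 205 and 168 FPKM in the CPP-Se dogs. CPP-Se replicate 1 was the highest of the 6 dogs and CPP-Se replicate 3 the lowest, so the control dogs lay between them. The log2 fold change was -0.21 (95% interval -0.77 to 0.35, adjusted p = 0.710 from limma), with -0.40 in the absence of CPP-Se replicate 1 and -0.043 in that of CPP-Se replicate 3. IGFBP6, which overlaps ITGB7 on the other strand, held reads equal to 5.32% of those on ITGB7.

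SELPLG (ENSCAFG00000011317, chromosome 26, 18250295 to 18259765) had 228, 199 and 232 FPKM in the control dogs and 175, 160.2 and 137 FPKM in the CPP-Se dogs. It was the only 1 of the 8 genes in which every CPP-Se dog lay below every control dog, a pattern shown by 12.6% of all genes tested. ITGB2 missed this pattern by less than 1 FPKM, in CPP-Se replicate 1 against control replicate 1. In 0 of the 8 genes did every CPP-Se dog lie above every control dog, against 10.4% of all genes. The means were 219.9 ± 18.1 and 157 ± 19.4 FPKM, and the log2 fold change was -0.48 (standard error 0.20, 95% interval -0.94 to -0.03, unadjusted p = 0.0396, adjusted p = 0.288 from limma). The separation depended on the scaling between libraries, a check added after the values were seen. It held under upper-quartile scaling. It also held under median-of-ratios scaling, where ITGB2 was separated too, but that scaling multiplied each dog by only 0.993 to 1.008. The deposited values are thus close to median-of-ratios scaling, and a result that holds under it gains no separate support. With FPKM brought to a common sum per dog, or to a common sum without hemoglobin genes, CPP-Se replicate 2 moved to 242 and 208 FPKM and into or above the control range. These scalings raised the median log2 fold change of all genes by 0.13 and 0.12, and relative to that median SELPLG differed by -0.46 and -0.45, against -0.48 with the deposited scaling.

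FERMT3 (ENSCAFG00000014609, chromosome 18, 52834001 to 52851667), the activator that binds beta chain tails, had the highest log2 fold change of the 8 genes. Control replicates 1, 2 and 3 had 85.4, 79.9 and 105 FPKM, and CPP-Se replicates 1, 2 and 3 had 141, 81.7 and 125 FPKM. CPP-Se replicates 1 and 3 lay above every control dog, and CPP-Se replicate 2 lay within the control range. The log2 fold change was 0.33 (95% interval -0.25 to 0.91, adjusted p = 0.570 from limma), at 0.17 without CPP-Se replicate 1 and 0.56 without CPP-Se replicate 2. Under the common-sum scalings, with and without hemoglobin genes, the FERMT3 levels of the groups no longer overlapped, with the CPP-Se dogs higher, as in 10.6% and 13.4% of all genes tested. Relative to the median of all genes, its log2 fold change was 0.36 under both, against 0.33 with the deposited scaling.

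**Figure D2:**
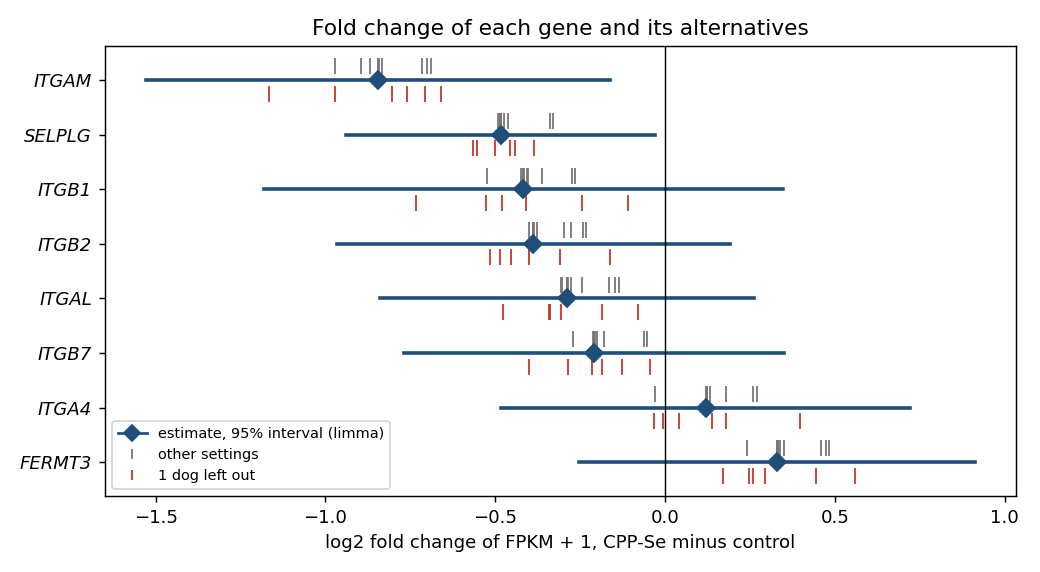
Log2 fold change of FPKM + 1 (CPP-Se minus control) for the 8 genes, with blue diamonds and lines for the estimate and its 95% interval from limma, grey ticks for other settings and red ticks for fits with 1 dog left out. ITGAM at -0.84 and SELPLG at -0.48 have intervals below 0, and ITGA4 at 0.12 is the gene whose ticks fall on both sides of 0.

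Ratios between chains within a dog do not depend on the scaling between libraries. ITGB2 and ITGAL, the chains of LFA-1, kept nearly the same ratio in every dog: ITGB2 was 12.1 to 15.0 times ITGAL in FPKM, a 1.24-fold range, although each gene alone varied 2.00-fold and 1.95-fold over the dogs. The ratio of ITGB2 to ITGAM was less even, at 5.02 to 7.79 in the control dogs and 5.90 to 11.9 in the CPP-Se dogs. Of the beta chains that take ITGA4 as partner, ITGB7 was 9.47 to 28.5 times and ITGB1 1.92 to 6.34 times the level of ITGA4. The lowest ITGB1 ratio was that of CPP-Se replicate 2 and the highest ITGB7 ratio that of CPP-Se replicate 1.

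Group differences in 3 ratios were tested with exact permutation (two-sided), whose smallest p for 3 dogs against 3 is 0.1. The ITGAM to ITGAL ratio was 2.79, 1.75 and 2.95 in control replicates 1, 2 and 3, against 1.02, 2.54 and 1.72 in the CPP-Se dogs. The groups overlapped, and the mean log2 ratio was 1.28 ± 0.41 in the control group and 0.72 ± 0.66 in the CPP-Se group (exact permutation p = 0.2, 0.6 after adjustment over the 3 ratios). The ITGB7 to ITGB1 ratio lay between 2.36 and 4.10 in the control dogs and between 1.97 and 5.80 in the CPP-Se dogs (exact permutation p = 0.6). The ITGA4 to ITGAL ratio spread most in the CPP-Se group, where it was 0.464, 1.13 and 1.53, against 0.766, 0.527 and 0.810 in the control group (exact permutation p = 0.5). No difference between the groups was detectable in these ratios with 3 dogs per group.

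**Figure D3:**
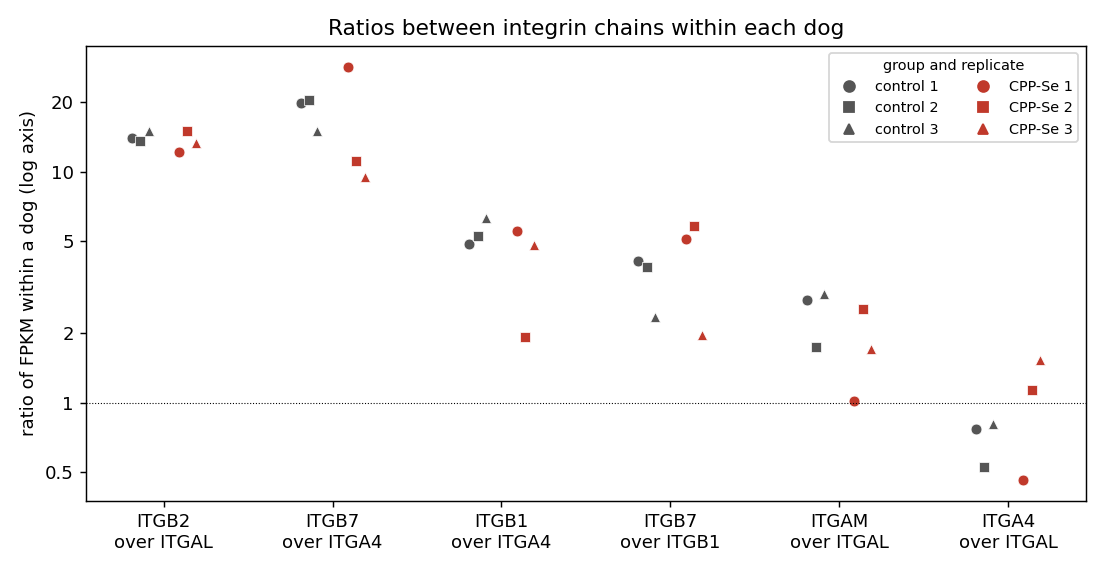
Ratios of FPKM between integrin chains within each dog (log axis), with control dogs in grey, CPP-Se dogs in red and marker shapes for replicates 1, 2 and 3. The ratio of ITGB2 to ITGAL stays between 12.1 and 15.0 in all 6 dogs, whereas the other 5 ratios spread more widely and overlap between the groups.

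None of the other integrin chains was a DEG either. Of 18 in the table, 9 were tested, 4 with a higher and 5 with a lower mean in the CPP-Se group, and 0 had an unadjusted p under 0.05, against 50.4% lower and 16% at that p among all genes (0 called by limma, limma-voom or limma-voom with sample quality weights). ITGA11, ITGB6 and ITGB8 had no read in any dog, which for each library allows up to the floor of 3 reads. The median log2 fold change of the list was -0.15.

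Among selectins, integrin counter-receptors and related molecules, 10 of 18 genes in the table were tested, 1 with a higher and 9 with a lower mean in the CPP-Se group. None was a DEG, and 3 had an unadjusted p under 0.05, against 16% of all genes tested, of which 50.4% had a lower CPP-Se mean. CD44, a receptor for hyaluronan, had 54.3 ± 4.69 and 34.2 ± 8.41 FPKM in the control and CPP-Se groups, without overlap (log2 fold change -0.68, adjusted p = 0.227 from limma). ICAM2, a ligand of LFA-1, had 13.995 ± 4.79 and 22.8 ± 4.15 FPKM with overlap (log2 fold change 0.70, adjusted p = 0.266 from limma). VCAM1 and MADCAM1, the endothelial ligands of the ITGA4 integrins, had no read in any dog.

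Of the adaptors and GTPases that switch integrins on or off, 20 of 23 in the table were tested, 9 with a higher and 11 with a lower mean in the CPP-Se group (median log2 fold change -0.0254). None was a DEG. An unadjusted p under 0.05 was found for 5: the adaptors SKAP2 (log2 fold change -0.65) and FYB1 (-0.62), CYTH1 (-0.48), which is known to bind ITGB2, and RASSF5 (-0.48), a RAP1 effector, were lower, while the T cell adaptor SKAP1 (0.57) was higher. Such a p was found for 16% of all genes tested. Without overlap between the groups were 6 lower genes (these 4, TLN1 and STK4) and 1 higher gene (RASGRP2), against 12.6% and 10.4% of all genes. TLN1 (talin-1), which binds beta chain tails beside FERMT3, had the higher level of that pair, with means of 315 ± 30.7 (control) and 263 ± 26.8 FPKM (CPP-Se, log2 fold change -0.26, adjusted p = 0.573 from limma). The other kindlins gave no more than traces: FERMT1 had no read in any dog, and FERMT2 was above 0 in CPP-Se replicate 2 alone, at 0.0362 FPKM.

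SELPLG binds selectins only once its sugars and tyrosines have been modified. Of 10 genes in the table for the enzymes that do so, 8 were tested, 3 with a higher and 5 with a lower mean in the CPP-Se group, and none was a DEG. B4GALT1, a galactosyltransferase, was the 1 gene of the 8 with an unadjusted p under 0.05 (16% of all genes), with means of 29.6 ± 3.80 (control) and 17.7 ± 4.49 FPKM (CPP-Se), without overlap (log2 fold change -0.73, adjusted p = 0.211 from limma). FUT7, the fucosyltransferase known for finishing the selectin-binding sugar in leukocytes, had no read in any dog, and FUT4, the related leukocyte enzyme, had 1.25 ± 0.0141 and 2.30 ± 1.45 FPKM. FUT4 and the sialyltransferase ST3GAL4 (16.9 ± 1.06 and 22.4 ± 2.72 FPKM) were higher in every CPP-Se dog, so 2 genes of the 8 were separated upwards and 1 downwards, against 10.4% and 12.6% of all genes. The margin for FUT4 was small, with 1.269 FPKM in CPP-Se replicate 2 and 1.263 FPKM in control replicate 3.

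**Figure D4:**
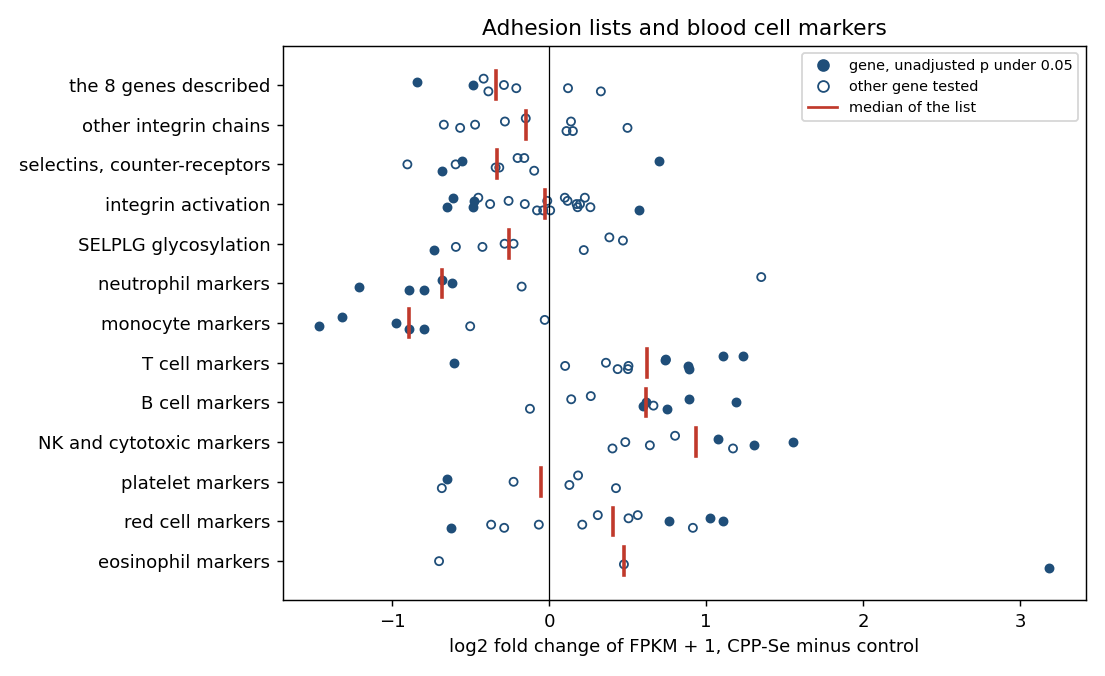
Log2 fold change of FPKM + 1 (CPP-Se minus control) of each gene tested, by list, with filled points for an unadjusted p under 0.05, open points for the other genes and a red bar for the median of the list. Neutrophil and monocyte markers lie mostly below 0 with medians of -0.68 and -0.89, and T, B and NK cell markers mostly above 0 with medians of 0.62, 0.62 and 0.94; 0 genes shown passed the adjusted threshold.

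For several of the blood cell types that carry these integrins, the summed marker levels of the groups did not overlap on the deposited scaling, but none of the markers was a DEG. The summed FPKM of 8 neutrophil markers was 2290 to 3056 in the control dogs and 1747 to 2268 in the CPP-Se dogs, and that of 9 monocyte markers was 774 to 905 and 358 to 437. Lower in the CPP-Se group with an unadjusted p under 0.05 were 5 of 7 neutrophil markers tested (CXCR2, CSF3R, MMP25, LTF and S100A12) and 5 of 7 monocyte markers tested, LYZ, VCAN, CSF1R and CD163 among them, against 9.1% of all genes. MMP9, another neutrophil gene, had 729 and 540.0 FPKM in CPP-Se replicates 1 and 3 but 23.7 FPKM in CPP-Se replicate 2, against 68.3 to 96.3 FPKM in the control dogs (log2 fold change 1.35, adjusted p = 0.606 from limma). Without CPP-Se replicate 2, MMP9 was called higher (log2 fold change 2.91, adjusted p = 0.0335 from limma), as was the eosinophil marker ALOX15 (4.85, adjusted p = 0.0107). Limma-voom with sample quality weights called CXCR2, VCAN and LYZ lower and CD3D, CD6, PRF1 and TBX21 higher in the CPP-Se group. The sums of 9 B cell markers (282 to 404 against 430 to 471 FPKM) and of 10 NK and cytotoxic markers (15.1 to 32.8 against 43.3 to 70.9 FPKM) were higher in every CPP-Se dog. CD79A made up most of each B cell sum, and alone it overlapped between the groups (289 ± 49.7 and 346 ± 46.3 FPKM). Of the 9 B cell markers, 5 were higher in every CPP-Se dog, against 10.4% of all genes. Most of each monocyte sum came from LYZ, without overlap, and CD68, with overlap. For T cells the sum was 1071 to 1366 in the control dogs and 911 to 1036 in the CPP-Se dogs, but CD4 made up most of it, a gene that dog neutrophils also carry. Without CD4, a choice made after the values were seen, the other 11 T cell markers summed to 109.7 to 222 FPKM in the control dogs and 240.3 to 322 FPKM in the CPP-Se dogs. Under the 4 other scalings, also added after the values were seen, the monocyte sums stayed lower and the NK and T cell sums (the latter without CD4) higher in every CPP-Se dog. Of these scalings, median of ratios is nearly the deposited one. The neutrophil sums overlapped under both common-sum scalings, where CPP-Se replicate 2 reached 2778 and 2392 FPKM, the B cell sums under the common sum of all genes (282 to 389 against 378 to 648 FPKM), and the T cell sums with CD4 under 3 of the 4.

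Of the lymphocyte markers, CD3D, CD6, LCK, CD5 and CD3E, then FCRLA, MS4A1, CD79B and CD22, and PRF1, TBX21 and GZMK were higher in the CPP-Se group with an unadjusted p under 0.05 (6.87% of all genes were higher at that p), and CD4 was lower. The platelet and red cell sums overlapped between the groups, as did the eosinophil sum, which was 7.84 FPKM in CPP-Se replicate 2 and 153 and 204 FPKM in the other CPP-Se dogs through ALOX15. Of the red cell markers, GYPC was lower and RHAG, ANK1 and SLC4A1 were higher at an unadjusted p under 0.05. The monocyte marker FCN1 had no read in any dog. The part of these marker differences in the values of ITGAM, SELPLG and the other 6 genes was not tested.

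The genes whose log2(FPKM + 1) followed ITGB2 most closely over the 6 dogs, out of 2674 genes with a symbol and at least 10 FPKM on average, were NDRG1, ZC3H3, CTSZ, CFP and TFEB, with Pearson correlations of 0.974 to 0.981. Those closest to ITGAL were SLC37A2, CALML4, CMTM7, BRI3 and CTSZ, with coefficients down to 0.965, so CTSZ (cathepsin Z) stood in both lists. Between ITGB2 and ITGAL the correlation was 0.941. ITGB2 had a correlation of 0.647 with ITGAM and of -0.50 with FERMT3. These are descriptions over 6 points that share the scaling of their libraries, and with 6 points many genes reach high values.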

How the data were processed

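Whole blood RNA of 3 control and 3 CPP-Se dogs was compared, with 1 library per dog, grouped by the sample titles. The authors aligned the reads with HISAT2 2.0.5, using the Ensembl release 100 dog genome, and the submitters' processing notes also name fastp 0.19.7 and featureCounts 1.5.0-p3. The authors deposited FPKM per gene, computed from gene length and mapped reads; how strand and reads on more than 1 gene were treated is not given in the sources used here. Reads were recovered by dividing FPKM times gene length by the smallest step of the library, which gave whole numbers (within 0.02) for 100% of genes above 0. They come from PCR libraries without molecular identifiers.

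The 9847 of 31512 genes whose mean reached 1 FPKM were tested on log2(FPKM + 1) with limma 3.58.1 in R 4.3.3 (lmFit and eBayes with an intensity trend). The 95% intervals are those of this fit. The pseudocount lowers the fold change of genes with few FPKM. The sources do not say how the dogs were drawn beyond biological replicates, and p-values measure the spread between them. Ratios were tested with scipy 1.17.1 in Python 3.11.15. The tests were checked on simulated counts.

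The genes described, the lists and the tests were chosen with earlier results of these data known. Named were all 8 genes, genes of the other lists with an unadjusted p under 0.05 (up to 6 per list, some of which are not reported here), the 5 genes closest to ITGB2 and to ITGAL, and TLN1, STK4, RASGRP2, ST3GAL4, FERMT1, FERMT2, FUT4, FUT7, MMP9 and genes without reads, chosen after their values were seen. Alternatives were another pseudocount, other filters, 4 scalings, other variance models, array weights, a replicate block, limma-voom on the recovered reads with and without sample quality weights, and each dog left out in turn. No sequence of these genes was used here.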

Additional observations from a re-analysis of the deposited data

How the results depend on the processing

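Over 19 other settings, 0 of the 8 genes was called in each of them, 0 also without a fold change threshold, and 149 of 152 log2 fold changes kept their direction. The 3 others were those of ITGA4, at -0.0298 with sample quality weights in limma-voom and from -0.0317 to 0.40 with 1 dog left out (-0.0317 without CPP-Se replicate 2 and -0.0069 without CPP-Se replicate 3). The other filters, the other variance models and the replicate block leave each log2 fold change as in the main fit. A direction could therefore not turn in those settings, and median-of-ratios scaling moved the values little. With 1 dog left out, the median of the 8 genes ranged from -0.44 to -0.12 and the ITGB7 to ITGB1 difference in mean log2 ratio from -0.0747 to 0.70, with its sign turning without control replicate 3 (-0.0366) or CPP-Se replicate 2 (-0.0747), for causes not tested. The other 2 ratios kept their direction but not their size: ITGAM to ITGAL ranged from -0.88 (without CPP-Se replicate 2) to -0.22 (without CPP-Se replicate 1), and ITGA4 to ITGAL from 0.073 (without CPP-Se replicate 3) to 0.93 (without CPP-Se replicate 1). The ratio of ITGAX to ITGAL could not be computed without a row for ITGAX.

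Genes called among all tested numbered 3 with the main settings, 14 with a common sum of FPKM, 14 without CPP-Se replicate 2, 156 with sample quality weights in limma-voom, and 0 to 3 in the other settings. With the replicate number as a replicate block, 0 of the 8 genes and 1 of all genes was called, and the sign-flip tests of the paired ratio differences gave 0.5 each by exact permutation, where 0.25 is the smallest they can give. Dogs of the same number shared only a number, since their deviations from the group means had correlations of 0.016, -0.09 and -0.043 across genes. Each of the 8 genes had at least 244 reads in every dog, and the 95% intervals of 6 of them span 0.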
